A study of Rattus norvegicus with 28 samples.

Results

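Of 28 striatal RNA libraries, 17 were set against each other by their level of Ttr, the transcript of transthyretin. Libraries with at least 30 RPM of Ttr (RPM, reads per 1000000 reads assigned to genes) were called Ttr-high and those below 10 RPM Ttr-low, which gave 6 high and 11 low libraries. The other 11 libraries lay between these thresholds and were left out of the comparison. Because the libraries were chosen by their measured Ttr, the difference in Ttr between the classes is a description and carries no test. The thresholds used neither genotype nor injury, and Ttr was tested by these alone.

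The libraries came from the striatum of male rats of 2 genotypes, wild type (wt) and a transgenic line (TG) labelled {delta}ETorA, which models DYT-TOR1A dystonia through a mutant human torsinA. Rats of each genotype were naive or had a crush of the right sciatic nerve for 30 seconds, and every group carries the label of 12 weeks post injury. Of the wt libraries 8 were naive and 6 injured, and of the TG libraries likewise 8 and 6. The sources used here state neither the age of the rats nor the promoter of the transgene. Human TOR1A lay between 102 and 144 RPM in the TG libraries and between 0 and 0.972 RPM in the wt libraries. Nothing in the labels says more about separate animals than that each library has a number of its own, so the p-values rest on the spread from library to library, which may be technical.

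Transthyretin carries thyroxine and, bound to retinol-binding protein, vitamin A. In the brain it is the major secreted product of the choroid plexus, the epithelium that lines folds in the ventricles and makes cerebrospinal fluid. The striatum borders the lateral ventricle, and its own principal cells are the GABAergic spiny projection neurons. The choroid epithelium pumps sodium, chloride and bicarbonate, passes water through aquaporin channels, and is sealed by junctions that let ions through. In bulk tissue, fewer cells of a type and less RNA per cell cannot be told apart.

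In the high libraries Ttr stood at 34.1 RPM in wt naive 201, 50.5 in wt naive 197, 75.9 in TG crush 226, 77.5 in TG crush 223, 109 in TG naive 193 and 126 in TG naive 194. In the low libraries it ran from 2.57 RPM in TG naive 189 over a median of 6.19 to 9.70 in wt crush 205. The means were 78.9 ± 34.6 RPM (SD, n = 6) and 6.32 ± 2.42 RPM (SD, n = 11), a 12.5-fold ratio. Behind the lowest value stood 93 reads and behind the highest 4572. Just outside the thresholds were TG naive 188 at 11.1 RPM and TG naive 191 at 28.0 RPM. The plot of Ttr by library shows no empty range at either threshold.

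**Figure D1:**
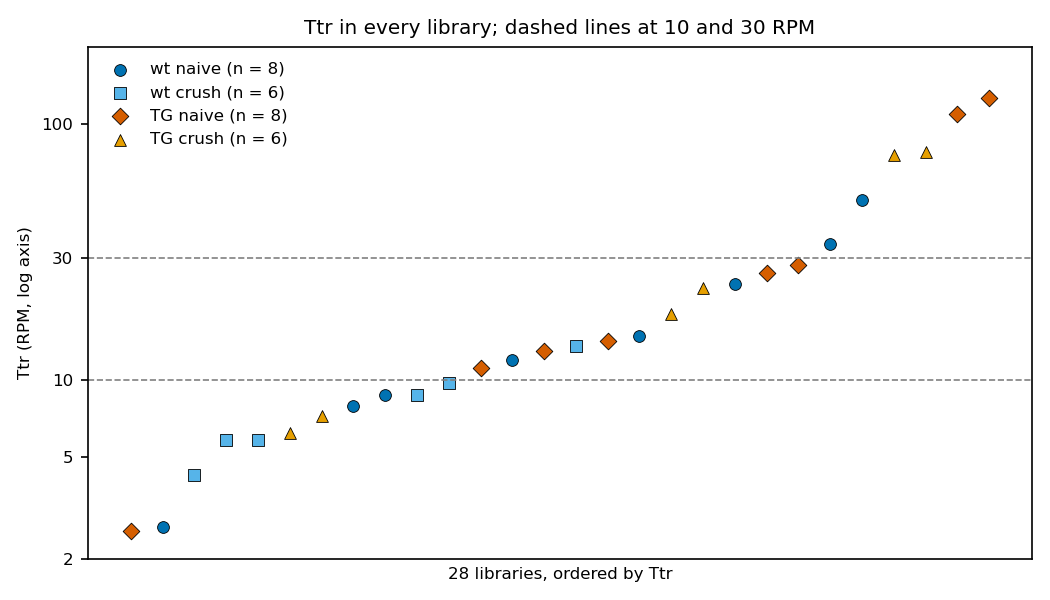
Ttr level of each of the 28 libraries (vertical log axis, RPM), ordered from lowest to highest, with the 4 groups by colour and shape. The 6 points above the upper dashed line (30 RPM) are the Ttr-high libraries and the 11 below the lower one (10 RPM) the Ttr-low ones, and no wt crush library is among the high ones.

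The classes held the 4 groups in different numbers. Of the wt naive libraries 2 were high and 3 low, of the TG naive libraries 2 and 1, of the TG crush libraries 2 and 2, and of the wt crush libraries 0 and 5. TG libraries were high in 4 of 7 cases and wt libraries in 2 of 10 (p = 0.162, two-sided Fisher's exact test). Crush libraries were high in 2 of 9 cases and naive libraries in 4 of 8 (p = 0.335, two-sided Fisher's exact test). With so few libraries, these p-values do not show an even spread.

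Over all 28 libraries, Ttr ran from 2.65 over a median of 13.4 to 50.5 RPM in wt naive rats and from 4.25 over 7.28 to 13.6 RPM in wt crush rats. It ran from 2.57 over 20.2 to 126 RPM in TG naive rats and from 6.19 over 20.4 to 77.5 RPM in TG crush rats. All 4 ranges overlapped. The largest of 4 differences in mean log2 (RPM + 0.5) was that of TG over wt after crush, 1.51, with an exact two-sided permutation p of 0.0476 that became 0.190 after Benjamini-Hochberg adjustment over the 4. The difference of TG and wt was 0.65 in naive rats (adjusted permutation p = 0.544), that of crush and naive -0.87 in wt rats (adjusted permutation p = 0.293) and -0.02 in TG rats (adjusted permutation p = 0.984). None of the 4 passed after adjustment.

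Genes that went with Ttr were found with limma on log2 (RPM + 0.5), with genotype and crush in the fit, and called at an adjusted p under 0.05 (Benjamini-Hochberg). An adjusted p here says that a gene went with Ttr across libraries and not that genotype or crush changed it. Of 17900 genes tested besides Ttr, 3916 were called (21.9%), 2523 higher (14.1%) and 1393 lower (7.78%) in the Ttr-high libraries. With library totals rescaled by the median of ratios instead, the split was 1553 higher and 2291 lower of 3844, so the share of higher against lower calls depends on the scaling. The count fell to 1976 without wt naive 201 and to 2247 without TG crush 223. Within naive libraries alone 704 genes were called and within crush libraries alone 1011. The 2 classes did not overlap for 183 genes that were higher (1.02%) and 158 that were lower (0.883%).

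The level of spiny neuron RNA differed between the classes. The mean log2 level of 19 spiny neuron markers was 8.05 ± 0.32 (SD, n = 6) in the high and 8.55 ± 0.10 (SD, n = 11) in the low libraries. In the high libraries it was lowest in TG crush 223 (7.70), wt naive 201 (7.73) and wt naive 197 (7.87), and 8.30 to 8.40 in the other 3. With that level added to the fit, 3 genes were called (0.0168%), all higher: Mfrp, F5 and Cldn2. The 3 passed the filter only with the help of the high libraries, since they reached 0.5 RPM in 0, 4 and 0 of the 11 low ones. Their log2 differences with the spiny level were 2.57 (SE 0.36) for Mfrp, 2.27 (SE 0.30) for F5 and 1.74 (SE 0.27) for Cldn2, all above those without it. Over all genes tested the standard error was a median 1.54 times as large with that level, so a lost call does not by itself show a smaller difference. Of the 3916 genes called without it, 3169 kept the sign of their difference with it. In the direction of the first fit the difference was smaller for 3476, a count that includes those that changed sign. The median share left was 0.384. Cd74, the invariant chain of MHC class II, stood at 1.78 (SE 0.33, limma adjusted p = 0.0721) and Cnr1, the cannabinoid receptor, at -0.80 (SE 0.22, limma adjusted p = 0.128). Over all 28 libraries, with log2 Ttr and the spiny level together (an alternative chosen after seeing the data), 19 genes were called (0.104%), 17 of which rose with Ttr. Besides Mfrp, F5 and Cldn2 these included the choroid genes Slc4a5, Sostdc1, Kcnj13, Kl and Clic6, and the antigen presentation genes Cd74, RT1-Da, RT1-Db1, RT1-A2, RT1-CE2, B2m and Psmb8. No ependymal or meningeal marker was called in that fit, and 7 members of the choroid lists were, all higher. No spiny neuron marker was called either, but these markers make up the level in the fit, so this is no result. Of the 7, F5, Clic6 and Cldn2 passed the filter of the 17 libraries only with the high ones. Sostdc1 and Kcnj13 did not pass it and reached 0.5 RPM in no low library. The calls of these genes are therefore not support by themselves. In the same fit 22 of 23 ependymal and 15 of 17 meningeal markers had a positive slope, and the ependymal median was 0.19. The medians of the 5 choroid lists were 0.01 to 0.09. The share of all genes with a positive slope in that fit is not given here.

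The 10 genes whose level was most like that of Ttr over the 28 libraries, after group means were taken off, included Cldn2, Kl, Slc4a5, F5 and Clic6 of the choroid lists. Pearson's r was 0.937 for Mfrp, 0.906 for Cldn2, 0.905 for Kl, 0.904 for Slc4a5 and 0.868 for F5. It was 0.862 for Psmb8, 0.832 for RT1-A2, 0.829 for Clic6, 0.817 for Rrbp1 and 0.816 for Pla2g5. These points share library depth and dissection, and r is given as a description. Only genes that passed the filter were ranked. Mfrp, Cldn2, F5, Clic6 and Pla2g5 passed it only with the Ttr-high libraries, so their likeness to Ttr is not support by itself.

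Mfrp (chromosome 8, 48437720 to 48443421, Rnor_6.0), a membrane frizzled-related protein, had the largest called difference. It ran from 1.30 over a median of 3.32 to 6.11 RPM in the high libraries and from 0.0553 over 0.294 to 0.456 RPM in the low ones. The classes did not overlap, and the log2 difference was 2.21 (SE 0.22, limma adjusted p = 5.49e-05). TG naive 194, the library of highest Ttr, also held the most Mfrp. Among the 6 high libraries wt naive 197 held the least. No low library reached 0.5 RPM, so Mfrp entered the fit through the high libraries.

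The choroid genes fixed as lists numbered 73 besides Ttr, of which 57 passed the filter (RPM of at least 0.5 in at least 6 of the 17 libraries). Of these, 26 were higher and 6 lower, with 25 not called and a median log2 difference of 0.29, against 0.04 over all genes tested. Among the 25 were Kcne2 (0.19), Car12 (-0.24), Rarres2 (-0.15), Wfdc2 (0.03), Epcam (-0.04) and Lrp2 (-0.03). Since a gene silent in the low libraries could pass only through the high ones, these counts are not support by themselves. The 49 members that also passed in the low libraries alone held 19 higher and 6 lower, with a median of 0.19. The corresponding shares over all genes passing in the low libraries were 14.1% and 7.97%. For 8 choroid genes the 2 classes did not overlap, all of them higher. Among the 49 these were 5, against 173 of 17474 genes passing in the low libraries (0.99%). The counts of the single choroid lists that follow stand beside 14.1% higher and 7.78% lower over all genes tested. They include members that passed only with the high libraries, such as Calml4 and Col8a1.

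Among 13 secreted proteins of the choroid, 11 were tested, and 8 were higher and 1 lower. Kl (chromosome 12, 942974 to 987206), the klotho protein, ran from 1.48 over 2.87 to 3.87 RPM in high and from 0.478 over 0.754 to 1.23 RPM in low libraries, with no overlap. Its log2 difference was 1.18 (limma adjusted p = 0.000401). F5 (chromosome 13, 82479997 to 82535540), coagulation factor V, ran from 0.890 over 2.30 to 3.57 RPM against 0.0553 over 0.366 to 0.817 RPM, again without overlap. Its log2 difference was 1.39 (limma adjusted p = 0.00136). F5 reached 0.5 RPM in 4 of the 11 low libraries and passed the filter only with the high ones.

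Igfbp2, a binding protein of insulin-like growth factors, ran from 11.1 over 14.7 to 17.0 RPM against 5.10 over 5.98 to 8.35 RPM and did not overlap. Its log2 difference was 1.12 (limma adjusted p = 7.20e-05). Igf2, the growth factor itself, was also higher by 0.59, and Enpp2, the lysophosphatidic acid producing enzyme autotaxin, by 0.46, but their ranges overlapped. Meningeal cells also make Igf2 and oligodendrocytes also make Enpp2. Rbp4, the retinol-binding partner of transthyretin, was the lower one (-0.49, limma adjusted p = 0.0153), with 22.5 to 44.5 RPM in high and 31.9 to 52.7 RPM in low libraries. Sostdc1, a secreted antagonist of BMP and Wnt signals, was below the filter, at 0.372 to 1.71 RPM in the high and 0.0281 to 0.274 RPM in the low libraries, which do not overlap.

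Of 15 genes of ion and water transport 14 were tested, and 7 were higher and 3 lower. Clic6 (chromosome 11, 32655653 to 32698004), an intracellular chloride channel protein, ran from 2.85 over 3.73 to 4.92 RPM in high and from 0.228 over 0.387 to 1.72 RPM in low libraries. Its classes did not overlap and its log2 difference was 2.004 (SE 0.24, limma adjusted p = 0.000196). Clic6 too reached 0.5 RPM in 4 of the 11 low libraries, and Aqp1 in 5, so both passed only with the high ones. Slc4a5 (chromosome 4, 114918488 to 115002290), a sodium bicarbonate cotransporter, ran from 1.88 over 2.63 to 4.55 RPM against 0.331 over 0.647 to 0.916 RPM. Its log2 difference was 1.37 (limma adjusted p = 0.000196), also without overlap. The span of Slc4a5 overlaps an uncharacterised locus on the other strand, and whether reads were counted by strand is not stated in the sources used here.

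Aqp1, the water channel of the choroid, ran from 0.743 over 1.37 to 2.65 RPM in high and from 0.141 over 0.468 to 0.813 RPM in low libraries, which overlap (log2 difference 0.72, limma adjusted p = 0.0118). Fxyd1, a regulator of the sodium pump, was higher by 0.73, Slc13a4, a sulphate transporter, by 0.48 and the carbonic anhydrase gene Car14 by 0.35. Kcnj13, a potassium channel of the apical membrane, was below the filter, at 0.386 to 1.68 RPM against 0.0916 to 0.294 RPM, with no overlap. The 3 lower members, Slc24a4 (-0.63), Slc4a10 (-0.26) and Atp2b3 (-0.28), stood at 85.01 RPM or more in every library of both classes. Neurons are known to express these 3 genes too.

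Of 18 solute carriers and receptors 12 were tested, and 2 were higher and 1 lower, with a median of 0.10. These shares are close to the 14.1% and 7.78% of all genes. Folr1, the folate receptor that loads folate into cerebrospinal fluid, was higher by 1.34 (limma adjusted p = 0.0129), at 1.20 over 1.55 to 2.63 RPM against 0.0293 over 0.147 to 2.16 RPM, with 3 of the 11 low libraries at 0.5 RPM or more. The overlap came from 2 low libraries, wt naive 198 (2.16 RPM) and wt crush 206 (1.72 RPM). Those 2 libraries also held 13.8 and 12.1 RPM of Foxj1, the regulator of motile cilia, against 2.17 to 4.57 RPM in the other low libraries. Htr2c, the serotonin receptor found in choroid epithelium and in striatal neurons, was lower (log2 difference -0.60, limma adjusted p = 0.00790). Prlr, the prolactin receptor, was below the filter at 0.326 to 1.63 RPM against 0.0294 to 0.264 RPM.

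Of 16 genes of junctions and scaffold 12 were tested, and 7 were higher and none lower. Cldn2 (chromosome X, 111122552 to 111133188), the claudin of ion-permeable tight junctions, ran from 0.588 over 1.24 to 2.27 RPM against 0 over 0.146 to 0.269 RPM, with a log2 difference of 1.40 (limma adjusted p = 0.000196). It passed the filter only through the high libraries. Cgnl1, a junction scaffold protein, ran from 21.1 to 26.4 RPM against 16.6 to 20.9 RPM with no overlap and a log2 difference of 0.33. Among 8 tested transcription factors of 11, Msx1 was higher by 0.93 and Rfx2 by 0.46, and Meis1 was lower (-0.36). Otx2, needed for the choroid plexus to form, stayed below the filter at 0.281 to 0.651 RPM in high and 0.0584 to 0.349 RPM in low libraries. Sostdc1, Kcnj13, Prlr and Otx2 were picked after their values were seen. Of the other choroid members below the filter, Slco1a5 and Lmx1a were also higher without overlap. Ranges overlapped for others, among them Lbp (0.112 to 0.434 against 0.114 to 0.468 RPM), Krt18 (0.336 to 1.49 against 0.0875 to 1.86 RPM), Cdh1, Slc28a3 and Tfap2c.

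**Figure D2:**
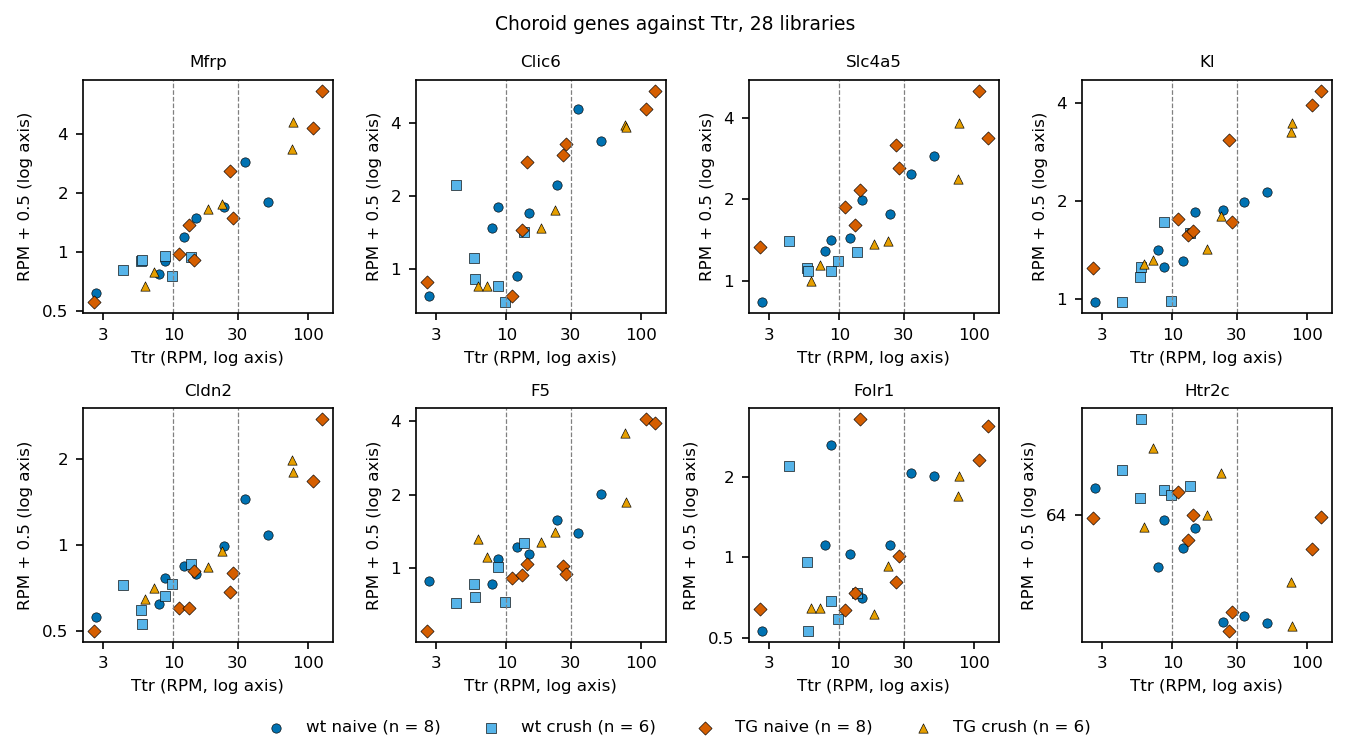
Levels of 8 genes (vertical log axes, RPM + 0.5) against Ttr (horizontal log axes, RPM) in all 28 libraries, coloured by group, with dashed lines at 10 and 30 RPM. All but Mfrp are members of the choroid lists. Mfrp, Clic6, Cldn2, F5 and Folr1 passed the filter only with the Ttr-high libraries. Mfrp, Clic6, Slc4a5, Kl, Cldn2 and F5 reach their highest values right of 30 RPM, Folr1 is also high in 2 libraries left of 10 RPM, and Htr2c runs the other way.

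Retinoid and thyroid hormone genes, the pathways transthyretin serves, numbered 27, of which 24 were tested. Of these, 3 were higher and 6 lower, with a median log2 difference of 0.13, against 14.1%, 7.78% and 0.04 over all genes. Rxrg, a retinoid receptor of striatal neurons, ran from 20.4 over 42.0 to 82.4 RPM in high and from 76.5 over 112 to 123 RPM in low libraries (log2 difference -1.51, limma adjusted p = 0.00131). Rarb, another retinoic acid receptor of the striatum, was at -0.56 and Klf9, a gene induced by thyroid hormone, at -0.39, both called. Cyp26b1, which degrades retinoic acid, was higher by 1.09 (limma adjusted p = 0.00307), but its median of 7.51 RPM in the high libraries was below that of the 11 libraries between the thresholds (13.8). Crym, a thyroid hormone binding protein, is listed at 0 in every library of both classes. Whether reads of Crym could be counted with this annotation was not tested, so the 0 does not show that the gene is silent.

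Of the 12 genes named for the largest rise, 5 belong to MHC class II, which presents peptides to helper T cells. They are RT1-Ba, RT1-Bb, RT1-Da and RT1-Db1, which encode its chains, and Cd74, the invariant chain that guides them. The MHC is a family of similar copies, and how reads were divided among them was not tested. Because these 4 genes moved together, the 250 bases before their RefSeq start sites are printed here from GRCr8, in the sense of the gene, with capitals for 2 short motifs.
RT1-Ba (chr20:4576807-4577056, plus strand): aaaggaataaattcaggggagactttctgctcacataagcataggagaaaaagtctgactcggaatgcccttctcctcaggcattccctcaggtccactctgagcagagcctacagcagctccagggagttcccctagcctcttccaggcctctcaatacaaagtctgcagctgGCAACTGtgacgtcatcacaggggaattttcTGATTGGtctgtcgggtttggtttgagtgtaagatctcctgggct
RT1-Bb (chr20:4604119-4604368, minus strand): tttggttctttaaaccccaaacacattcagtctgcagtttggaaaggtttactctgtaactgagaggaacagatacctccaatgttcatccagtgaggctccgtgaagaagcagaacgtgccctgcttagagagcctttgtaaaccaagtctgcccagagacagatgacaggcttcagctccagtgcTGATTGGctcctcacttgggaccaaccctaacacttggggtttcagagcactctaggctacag
RT1-Da (chr20:4515165-4515414, plus strand): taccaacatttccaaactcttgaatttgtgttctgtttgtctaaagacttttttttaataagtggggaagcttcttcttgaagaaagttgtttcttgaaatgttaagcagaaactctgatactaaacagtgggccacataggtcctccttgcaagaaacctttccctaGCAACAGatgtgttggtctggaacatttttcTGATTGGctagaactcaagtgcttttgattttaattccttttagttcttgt
RT1-Db1 (chr20:4560163-4560412, minus strand): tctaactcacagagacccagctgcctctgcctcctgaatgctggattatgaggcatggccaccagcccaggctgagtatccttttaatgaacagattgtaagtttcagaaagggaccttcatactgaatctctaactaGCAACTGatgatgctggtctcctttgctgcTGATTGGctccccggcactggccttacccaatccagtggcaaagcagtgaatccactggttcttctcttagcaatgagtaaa
The motifs searched on both strands were TGATTGG, the inverted CCAAT box that class II promoters call the Y box, and GCAACNG, the core of the X box. In the same 250 bases, TGATTGG is found in 6.42% of the 33469 promoters of the table, GCAACNG in 9.78% and both in 0.577%. TGATTGG was found once in each of the 4 sequences and GCAACNG in those of RT1-Ba, RT1-Da and RT1-Db1. These matches are a description of the letters only.

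RT1-Ba ran from 3.37 over 7.79 to 9.46 RPM in the high libraries and from 0.580 over 1.52 to 1.87 RPM in the low ones, a log2 difference of 2.02 (SE 0.23, limma adjusted p = 0.000101). RT1-Da ran from 3.42 over 8.12 to 9.82 RPM against 1.29 over 1.68 to 2.43 RPM (1.89, SE 0.18, limma adjusted p = 4.29e-05). RT1-Bb was higher by 1.77 and RT1-Db1 by 1.68. Cd74 ran from 16.5 over 36.03 to 49.9 RPM against 5.74 over 7.79 to 10.3 RPM (2.10, SE 0.20, limma adjusted p = 4.29e-05). None of these 5 genes overlapped between classes. In each of the 5 the lowest high library was TG naive 193, which held the second highest Ttr.

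RT1-DMa and Ciita, other genes of class II chosen after their values were seen, overlapped between classes. Further class II genes are not given here. RT1-DMa, part of the peptide editor of class II, ran from 10.01 to 13.1 RPM in the high and from 9.16 to 13.4 RPM in the low libraries, which overlap. Ciita, the coactivator of class II transcription, was below the filter and not tested, at 0.309 to 0.560 RPM against 0.0588 to 0.438 RPM. RT1-A2, a class I gene, ran from 31.8 over 34.8 to 42.8 RPM against 19.96 over 23.9 to 27.9 RPM (log2 difference 0.60, limma adjusted p = 0.000575). Psmb8, a subunit of the immunoproteasome that makes peptides for class I, ran from 4.29 over 4.43 to 5.31 RPM against 2.45 over 2.88 to 4.02 RPM (0.55, limma adjusted p = 0.00220). Neither overlapped.

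C3, the central complement component, ran from 56.6 over 75.6 to 94.0 RPM in high and from 14.0 over 22.0 to 35.1 RPM in low libraries, with no overlap and a log2 difference of 1.48 (limma adjusted p = 0.000162). Of 18 microglia and macrophage markers 10 were higher and none lower, with a median of 0.28, against 14.1% and 7.78% of all genes. Cd74, given above with class II, is a member of this list and among the 10. Tyrobp, a signalling adaptor of myeloid cells, was higher by 0.55 and Aif1 by 0.46. The summed level of the 18 markers, Cd74 included, was 849 to 1078 RPM in high and 674 to 1018 RPM in low libraries. The part of these cells in the class II values was not tested.

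**Figure D3:**
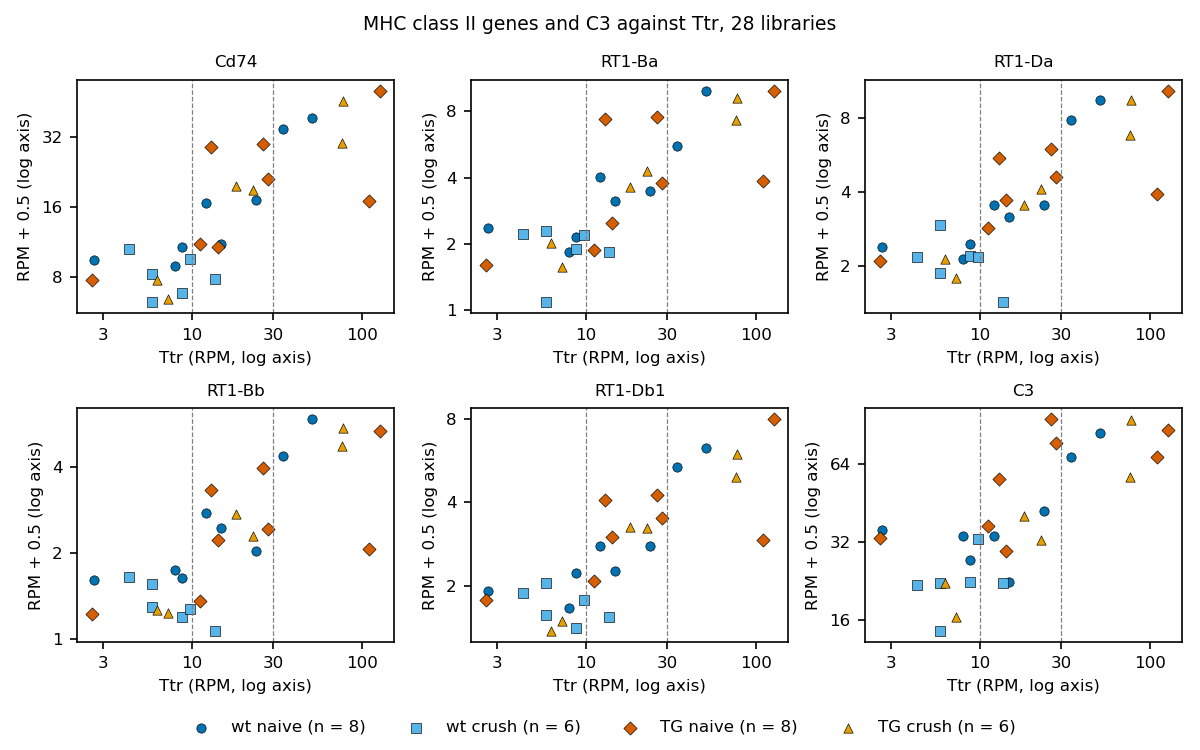
Levels of Cd74, 4 MHC class II genes and C3 (vertical log axes, RPM + 0.5) against Ttr (horizontal log axes, RPM) in all 28 libraries, coloured by group. Points right of 30 RPM of Ttr lie above all points left of 10 RPM, and the TG naive library at 109 RPM of Ttr lies lowest among the high ones for Cd74 and the class II genes.

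The other genes named for the largest rise were not shared evenly by the high libraries. Ngfr, the low-affinity neurotrophin receptor, ran from 5.99 over 14.3 to 37.1 RPM in high and from 3.04 over 4.57 to 9.11 RPM in low libraries, and was highest in wt naive 201 and wt naive 197 (log2 difference 1.76, limma adjusted p = 0.000940). The 11 libraries between the thresholds had a median of 17.1 RPM of Ngfr, above that of the high ones. Exph5 was higher by 1.56 and Rasgrf2, a Ras exchange factor listed as a cortical marker, by 1.52, both with overlap. The median of Rasgrf2 between the thresholds was 45.8 RPM, also above that of the high libraries (36.2). Car3, a carbonic anhydrase of muscle and fat, was at 27.4 RPM in TG crush 223 and 19.8 in TG crush 226, against 1.30 to 2.91 RPM in the other 4 high and 0.794 to 1.91 RPM in the low libraries (log2 difference 1.87, limma adjusted p = 0.00741). TG crush 223 also held the most pituitary hormone RNA of the high libraries, with 41.9 RPM of Gh1 and 11.3 of Prl.

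Of the 12 genes named for the largest fall, Cnr1 came first. Cnr1 (chromosome 5, 49307584 to 49333064), the cannabinoid receptor, ran from 65.7 over 110 to 242 RPM in high and from 293 over 375 to 439 RPM in low libraries, with no overlap and a log2 difference of -1.89 (SE 0.24, limma adjusted p = 0.000209). Nxph4, a neurexin ligand, ran from 6.87 over 11.5 to 26.4 RPM against 23.2 over 41.2 to 63.8 RPM (-1.82). Reln, the secreted guide protein reelin, was at -1.33, and Ace, the angiotensin-converting enzyme, at -1.40. Gpr139, an orphan receptor, ran from 0.186 over 0.768 to 1.07 RPM against 1.62 over 2.62 to 3.46 RPM (-1.39), again without overlap. Cytip (-1.57), Coch (-1.45), Ido2 (-1.23), Kcng1 (-1.22) and Pou3f1 (-1.22) were also among the 12, with Rxrg. The spans of Exph5, Rasgrf2, Cytip, Rxrg, Coch, Ace and Reln overlap other annotated genes, so their values are uncertain in the same way as that of Slc4a5.

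Of 19 spiny neuron markers 15 were lower and none higher, with a median of -0.56, against 7.78% and 14.1% of all genes. Pde10a, the striatal phosphodiesterase, ran from 217 over 321 to 435 RPM in high and from 480 over 596 to 719 RPM in low libraries, with no overlap (-0.98, limma adjusted p = 0.000671). Drd1, the dopamine receptor of direct pathway neurons, ran from 135 over 203 to 250 RPM against 253 over 340 to 379 RPM (-0.79, limma adjusted p = 0.00136). Drd2, its counterpart in the indirect pathway, was at -0.51 and Ppp1r1b, the phosphoprotein DARPP-32, at -0.56, both called. Penk (-0.36, limma adjusted p = 0.0749) and Pdyn (-0.04, limma adjusted p = 0.853), both opioid precursors, were not called. The summed level of the 19 markers was 8191 to 13575 RPM in high and 12515 to 15710 RPM in low libraries.

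**Figure D4:**
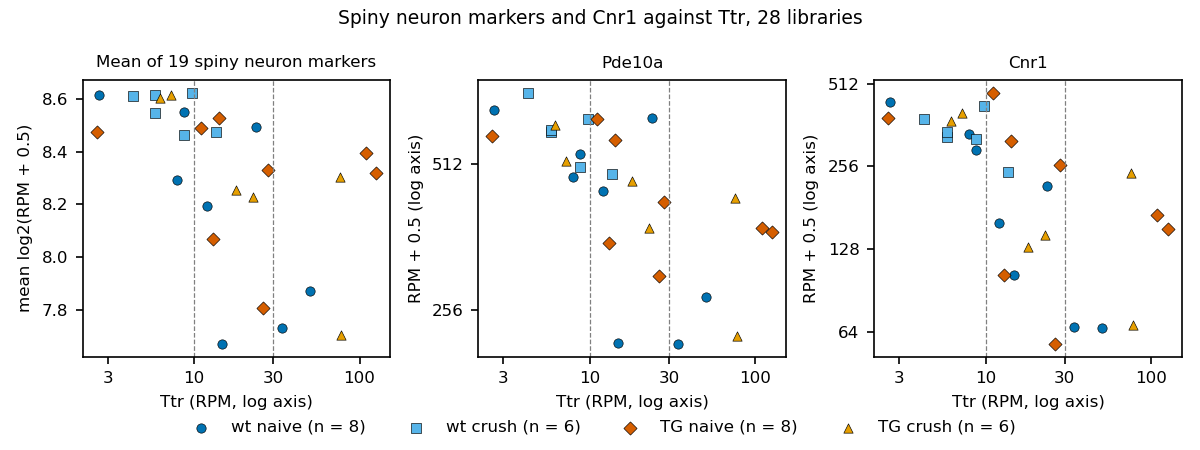
Mean log2 (RPM + 0.5) of 19 spiny neuron markers (left), and levels of Pde10a and Cnr1 (vertical log axes, RPM + 0.5), against Ttr (horizontal log axes, RPM) in 28 libraries, coloured by group. The low libraries sit together at 8.29 to 8.62 in marker level while the high ones spread from 7.70 to 8.40.

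Of 17 oligodendrocyte markers 10 were higher and none lower (median 0.34), and Mbp, the myelin basic protein, ran from 11244 to 20450 RPM in high and from 8361 to 12228 RPM in low libraries. Of 16 astrocyte markers 7 were higher and none lower (median 0.22). Over all genes 14.1% were called higher and 7.78% lower. Gfap, the astrocyte filament, ran from 914 over 1132 to 1531 RPM against 502 over 622 to 906 RPM without overlap (0.88, limma adjusted p = 0.000842).

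Markers of tissue next to the striatum differed from list to list. Ependymal markers, from the ciliated lining of the ventricle, had 2 of 20 tested members higher, Tekt1 (0.65) and Cfap52 (0.74), and a median of 0.62. Their summed level was 56.3 to 142 RPM in high and 46.6 to 174 RPM in low libraries, and these ranges overlap. Of 17 meningeal and fibroblast markers 5 were higher, among them Fmod (0.75), Col1a1 (0.32) and Slc22a6 (0.67). Of 18 endothelial and pericyte markers 2 were higher, Tagln and Plvap, and of 5 blood cell genes none (Hba1 -0.29, limma adjusted p = 0.506). The ependymal and endothelial shares are below the 14.1% of all genes called higher. Even so, 19 of 20 ependymal and all 18 endothelial differences were positive, and the ependymal median was the largest of the 20 lists. Over all genes passing in the low libraries, 10354 of 17474 differences were positive on this scaling. Uncalled members could have wide errors, such as Spag6 (1.70, SE 0.61) and Drc1 (0.83, SE 0.31). Few calls therefore do not show that ependymal RNA was level between the classes.

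Of 12 cortical markers 5 were higher and 1 lower. Slc17a7, the vesicular glutamate transporter of cortical neurons, ran from 5.92 over 7.49 to 24.0 RPM in high and from 2.11 over 3.32 to 5.62 RPM in low libraries (1.26, limma adjusted p = 0.00454), the highest being wt naive 197. Without that library 2794 genes were called. Of the thalamic markers 3 of 9 were higher and 1 lower, of the septal 3 of 10 higher, and of the hippocampal 1 of 8 higher and 2 lower. Over all genes 14.1% were higher and 7.78% lower, and the hippocampal share of higher genes was below that. Of 12 hypothalamic and pituitary genes 1 was higher, Gal, the neuropeptide galanin (1.46, limma adjusted p = 0.00263), a share below that of all genes. Gal and Slc17a6, the latter among the higher thalamic markers, passed the filter only with the high libraries. They reached 0.5 RPM in 3 and 4 of the 11 low ones. Of the tested cortical markers 10 passed in the low libraries too, and of the thalamic ones 8. The cortical and thalamic counts are therefore not support by themselves. The part of these tissues in the results above was not tested.

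**Figure D5:**
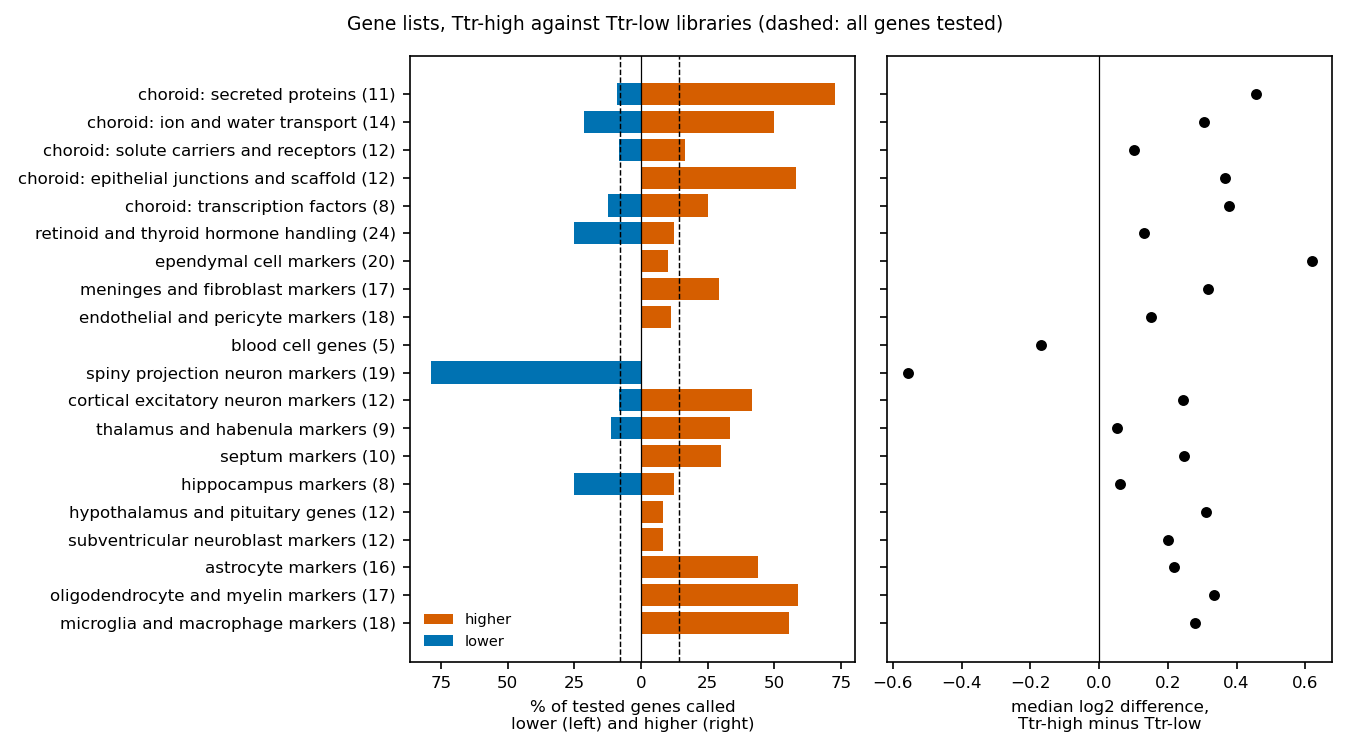
For each of 20 gene lists (number of tested genes in brackets), the percent of tested genes called lower (left bars) and higher (right bars) and the median log2 difference of Ttr-high minus Ttr-low libraries (points). Dashed lines mark 7.78% and 14.1%, the shares over all genes, and spiny neuron markers reach furthest to the left, with 15 of 19 lower.

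The 11 libraries between the thresholds, which the choice did not use, held 11.1 to 28.0 RPM of Ttr. In a fit of log2 Ttr over these 11, 0 of 17603 genes were called by limma (0%). At an unadjusted p under 0.05 there were 950, where a share of 0.05 is expected by chance. Pearson's r with log2 Ttr over the 11 was 0.26 for the mean level of the choroid lists and -0.13 for the spiny level. All 12 genes named as higher had a positive slope there and all 12 named as lower a negative one. The share of all genes that kept their sign was not computed. The 24 slopes come from the same 11 libraries and are not separate tests, so their signs are a description and no repeat of the result. The slope per log2 of Ttr was 1.10 for Clic6 (SE 0.27), 0.74 for Mfrp (SE 0.22) and 0.75 for C3 (SE 0.24), each with a limma adjusted p of 0.908.

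With log2 Ttr in a fit of genotype and crush over all 28 libraries, 1639 of 18221 genes were called for crush (9%), against 2096 (11.5%) without it, and 1625 were shared. For genotype, 4 genes (0.0220%) were called with Ttr in the fit and 5 (0.0274%) without, by limma, with 849 genes at an unadjusted p under 0.05 in each. With the mean level of the choroid lists in place of Ttr, the crush calls numbered 479. Whether Ttr was in the fit therefore moved the count of crush calls by less than 1.5 times, and the choroid list level moved it by more.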

How the data were processed

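RNA of 28 rat striatal samples was sequenced from 1 end (75 nt, 2 runs, stranded mRNA kit), per the labels' protocols, which do not assign libraries to runs. The submitters' processing notes name STAR 2.6.1a, featureCounts (Subread 1.6.3), DESeq2 1.22.2 and the build Rnor_6.0. The deposited table holds RPKM values by the authors, with commas as decimal marks (unit recorded as other), for 39538 genes. Its lengths are gene spans with introns, so RPKM times length in kilobases was used as RPM. These values were whole reads within a tolerance of 0.02 for 100% of values. The libraries held 29151455 to 38407359 assigned reads, and 3 counts, the limit that a count of 0 allows, were at most 0.103 RPM, for counting error only.

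Genes with an RPM of at least 0.5 in at least 6 of the 17 libraries were fitted with limma 3.58.1 (R 4.3.3) on log2 (RPM + 0.5), with terms for genotype, crush and Ttr class, trended moderated variances and Benjamini-Hochberg adjustment over all genes besides Ttr. Fold changes on this scale understate those of low genes. Named were the 12 called genes that rose most and the 12 that fell most, given a mean RPM of 1 or more and a named gene, the choroid list members, up to 4 members of lowest p of every other list, and the 10 genes most like Ttr. Of 328 list entries in 20 lists, Dnah5 and Ogn matched more than 1 row and Hba-a2 none. Members and lists were chosen with earlier results of these data known. Drd1, Drd2, Ppp1r1b, Penk, Pdyn, RT1-DMa, Ciita, RT1-CE2, B2m, Sostdc1, Kcnj13, Prlr, Otx2 and Crym were named outside this rule after their values were seen. So were Slco1a5, Lmx1a, Lbp, Krt18, Cdh1, Slc28a3 and Tfap2c. Permutation and Fisher tests used scipy 1.17.1 in Python 3.11.15, and figures matplotlib 3.10.9. Promoter sequences are RefSeq's on GRCr8, a later build than that of the table, and all 4 genes looked up were matched. The fit was tested on simulated counts: in the simulated Ttr-high against Ttr-low comparison, over 17807 genes, the recovered share was 76% at a 1.5-fold and 99% at a 2-fold change, and 8 of 182 calls were false. The direction of the change was checked at 1.5-fold only. Genes were drawn independently, with the same dispersion for each and no shared difference in tissue. These shares therefore do not carry over to the real libraries, whose classes differ in spiny neuron level. Alternatives were other pseudocounts, filters, scalings, thresholds and covariates, limma-voom, array weights, and subsets of the libraries, including each library left out once. After the data were seen, 3 more were added: a filter on the low libraries, log2 Ttr with the spiny level over 28 libraries, and the fit over the 11 libraries between the thresholds. Some values are not reported here.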

Additional observations from a re-analysis of the deposited data

Results flagged for a closer look

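The difference between Ttr-high and Ttr-low libraries depended on injury for Car3 among the 24 genes named for the largest change. In a limma fit with a term for class by crush, the naive difference minus the crush difference was -3.40 (SE 0.25, limma adjusted p = 1.83e-06). The mean was 23.6 RPM in the 2 Ttr-high and 1.36 in the 7 Ttr-low crush libraries, against 2.08 in the 4 high and 1.30 in the 4 low naive libraries. The 2 Ttr-high crush libraries are both TG, at 27.4 (TG crush 223) and 19.8 RPM (TG crush 226). TG naive Ttr-high libraries held 1.66 (193) and 1.30 RPM (194) and TG crush Ttr-low libraries 0.794 (214) and 1.37 RPM (222), and no wt crush library was Ttr-high. Of all 17900 genes, 1 more was called for this term, LOC685716 (2.81, SE 0.36, limma adjusted p = 0.00451), at 0.265 RPM in the high and 3.57 in the low crush libraries and 5.76 and 3.75 in the naive ones. None of 29 sets of values, Ttr in the 4 groups and Ttr and the 24 genes in the Ttr-high libraries, had a library far enough from the others to be singled out. The rule was Dixon's ratio of the gap at 1 end to the range. It misses 2 libraries that stand apart together, as TG crush 223 and 226 do for Car3.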

How the results depend on the processing

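No paired analysis was possible because each library has a number of its own and no number is shared between groups. The number of genes called with the Ttr class, 3916, was 2294 on the RPKM scale, 2607 with log2 Ttr over 28 libraries, 1686 with 1 threshold of 20 RPM, 1976 with at least 50 against below 10 RPM (the same fit as without wt naive 201), 3 with the spiny neuron level, 19 with log2 Ttr and the spiny level over 28 libraries, 704 in naive and 1011 in crush libraries. Fewer libraries or genes were fitted in the RPKM, 50 RPM, naive and crush settings, and otherwise the cause was not tested. Leaving out each library gave 1976 (without wt naive 201) to 4275. The crush calls with Ttr in the fit, 1639, were 479 with the choroid level instead. The other alternatives stayed within 1.5 times.

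Of 99 named genes called, 12 values changed sign under 19 settings, 388 lost the call and 1383 kept it. With 1 library left out at a time 84 values lost the call, 1581 kept it and none changed sign. The sign changed with the spiny level for Atp2b3 (0.13), Rbp4 (0.16), Slc4a10 (0.00999), Sox6 (-0.0192), Itpka (0.15) and Ociad2 (0.19), and with log2 Ttr and the spiny level for Rbp4 (0.0420), Cyp26b1 (-0.0155), Nrn1 (-0.0240), Slc17a6 (-0.00157), Sox6 (-0.0264) and Itpka (0.0115). The cause was not tested. The 4 differences in Ttr between groups stayed uncalled in 30 alternatives each, with adjusted p of 0.0606 or more for TG against wt after crush. Depth limits Mfrp, F5, Folr1, Cldn2, Sostdc1, Kcnj13, Otx2 and Ciita, which lay near the level of few reads in the low libraries.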
